A study of Mus musculus with 3 samples.

Results

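The course of 10 genes that mark mouse embryonic stem (ES) cells, outside the core factors Pou5f1, Nanog and Sox2, was followed through a differentiation towards hepatic cells. They are the transcription factors Zfp42 (Rex1), Tfcp2l1, Prdm14, Spic and Sall4, the chromatin proteins Dppa2, Dppa4 and Utf1, the F-box protein Fbxo15 and the enzyme Tdh. They were chosen by name, and every gene probe whose symbol, or older alias with a matching accession, was a member was taken. Of the 10 members, 9 had probes, 15 probes in all, among 21181 genes compared over the whole array. Prdm14 is not analysed here. Each of the 3 samples was RNA of the ES cell line E14.1 on 1 array. On day 0 the cells were undifferentiated ES cells, kept on gelatin in serum-free N2/B27 medium with 10 ng/ml BMP4 and 1000 U/ml LIF. On day 5 they were ES cell-derived definitive endoderm, grown on collagen IV with 30 ng/ml activin A in place of BMP4 and LIF. On day 7 they were ES cell-derived early hepatic cells, which had 30 ng/ml BMP4 and 10 ng/ml bFGF besides activin A for the last 2 days. With 1 array per day there was no test, and every difference is one between a pair of arrays, with no replicate check.

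Mouse ES cells held with LIF keep a naive state that resembles the inner cell mass of the blastocyst, in which LIF signals through Stat3 to factors such as Tfcp2l1 and Klf4. Many naive marker genes are lost as cells pass through a postimplantation epiblast state, while general pluripotency genes such as Pou5f1 persist longer. Zfp42 is a zinc finger gene used for decades as a reporter of the naive state, Fbxo15 served as the reporter locus in early reprogramming screens, and Tdh is an enzyme on which mouse ES cells depend for growth. Sall4, by contrast, is known to be expressed also in the fetal liver.

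Each of the 9 members with probes was well above background on day 0, as were 71.7% of all gene spots. On days 5 and 7, 9 and 8 of the 9 were, against 70.9% and 71.6% of gene spots. Detection alone thus did not set day 0 apart. All 6 ES cell markers checked (Pou5f1, Nanog, Sox2, Esrrb, Klf4 and Dppa5a) were well above background on day 0 and at least 2-fold lower on days 5 and 7. All 6 definitive endoderm markers (Sox17, Foxa2, Cxcr4, Cer1, Gsc and Hhex) were at least 2-fold higher on both later days than on day 0. Of 6 hepatic markers, 4 were at least 2-fold higher than on day 0 already on day 5, and 5 on day 7. Alb, which encodes albumin, was not well above background on day 7. Of 8 markers of extraembryonic endoderm, a lineage with Sall4, 3 were lower and 5 higher on day 5 than on day 0. On day 7, 0 were lower and 7 at least 2-fold higher. The median normalised log2 signal of the 8 was -1.16, 0.94 and 2.43 on days 0, 5 and 7. Of 8 primordial germ cell markers, 5 were lower and 2 higher on day 5 than on day 0, and 5 lower and 0 higher on day 7. The shares over all genes were 16.2% lower and 16.4% higher on day 5, and 19.2% and 16.2% on day 7. Of 8 trophoblast markers, 3 were lower and 3 higher on day 5, and 2 lower and 4 higher on day 7. The part of such cells in the results was not tested. In bulk RNA, fewer cells of a type and less RNA per cell cannot be told apart. Signals are given as multiples of the 75th percentile of an array's processed signal (1564, 2051 and 2053 intensity units on days 0, 5 and 7), and differences on the log2 scale. Over genes well above background on both arrays, the median difference was -0.13 on day 5 and -0.20 on day 7 relative to day 0, and -0.09 on day 7 relative to day 5.

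Sequences are shown where they bear on how far a member's probes count as separate readings. The 60-base probes of Zfp42 overlap: they share the run below, at chr8:44380707-44380726 on the minus strand of mm9, so their agreement is partly that of 1 target.
Zfp42, bases shared by both probes: tgtgctattgaaggggatgg
The 4 probes of Tfcp2l1 share no run of more than 7 bases, and the 2 probes of Sall4 none of more than 5, so that each reads its own stretch of transcript. The opening 30 bases of the mapped ones follow, at chr1:120581646-120581705, chr1:120577122-120577181 and chr1:120575083-120575142 (mm9, plus strand) for Tfcp2l1, and at chr2:168574333-168574392 and chr2:168578172-168578231 (mm9, minus strand) for Sall4.
Tfcp2l1, chief probe: gtacctgaaataaagcatattttgcacttg
Tfcp2l1, probe at 120577122: gtagtgggagagtctagtttcatcctttta
Tfcp2l1, probe at 120575083: ctcatggaccactactgtgtattctcattt
Sall4, chief probe: tgcgaccacccaagtattgccaggtcttaa
Sall4, other probe: gcctccctccaacatttatccgagcacagc

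Promoters of 4 members were in the RefSeq table of build GRCm38.p6 (Zfp42, Tfcp2l1, Utf1 and Spic), and the 250 bases before the start are printed for the pair that followed different courses after day 5. Capitals mark the octamer, the motif bound by Oct4 (ATGCAAAT, or ATTTGCAT on the other strand), and the GC box (GGGCGG or CCGCCC). The Zfp42 promoter is chr8:43307010-43307259 on the minus strand and that of Tfcp2l1 is chr1:118627695-118627944 on the plus strand.
Zfp42 promoter: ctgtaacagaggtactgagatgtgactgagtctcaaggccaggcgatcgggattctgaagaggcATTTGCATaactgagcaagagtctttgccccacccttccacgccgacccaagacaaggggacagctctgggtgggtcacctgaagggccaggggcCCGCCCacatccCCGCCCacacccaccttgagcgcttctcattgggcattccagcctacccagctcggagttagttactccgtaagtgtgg
Tfcp2l1 promoter: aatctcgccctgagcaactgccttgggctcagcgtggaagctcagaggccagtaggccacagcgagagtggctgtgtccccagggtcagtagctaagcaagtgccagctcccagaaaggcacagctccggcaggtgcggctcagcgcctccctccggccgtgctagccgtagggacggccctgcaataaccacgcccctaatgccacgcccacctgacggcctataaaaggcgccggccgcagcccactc
The octamer lies 186 bases before the Zfp42 start and was in 1.60% of 32851 promoter windows of this length, counted on both strands. The GC box occurs 2 times in the Zfp42 window and 4 times in that of Utf1, and was in 32.7% of windows. An Esrrb-type motif (TCAAGGTCA, in 0.387% of windows) and a STAT-type motif (TTCCNGGAA, in 0.913%) were searched on both strands as well, and their letters are in none of the 4 windows. CpG dinucleotides numbered 16 in the Tfcp2l1 window, 14 in that of Utf1, 9 in that of Zfp42 and 1 in that of Spic, against a median of 6 over all windows. These matches describe the letters only.

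**Figure D1:**
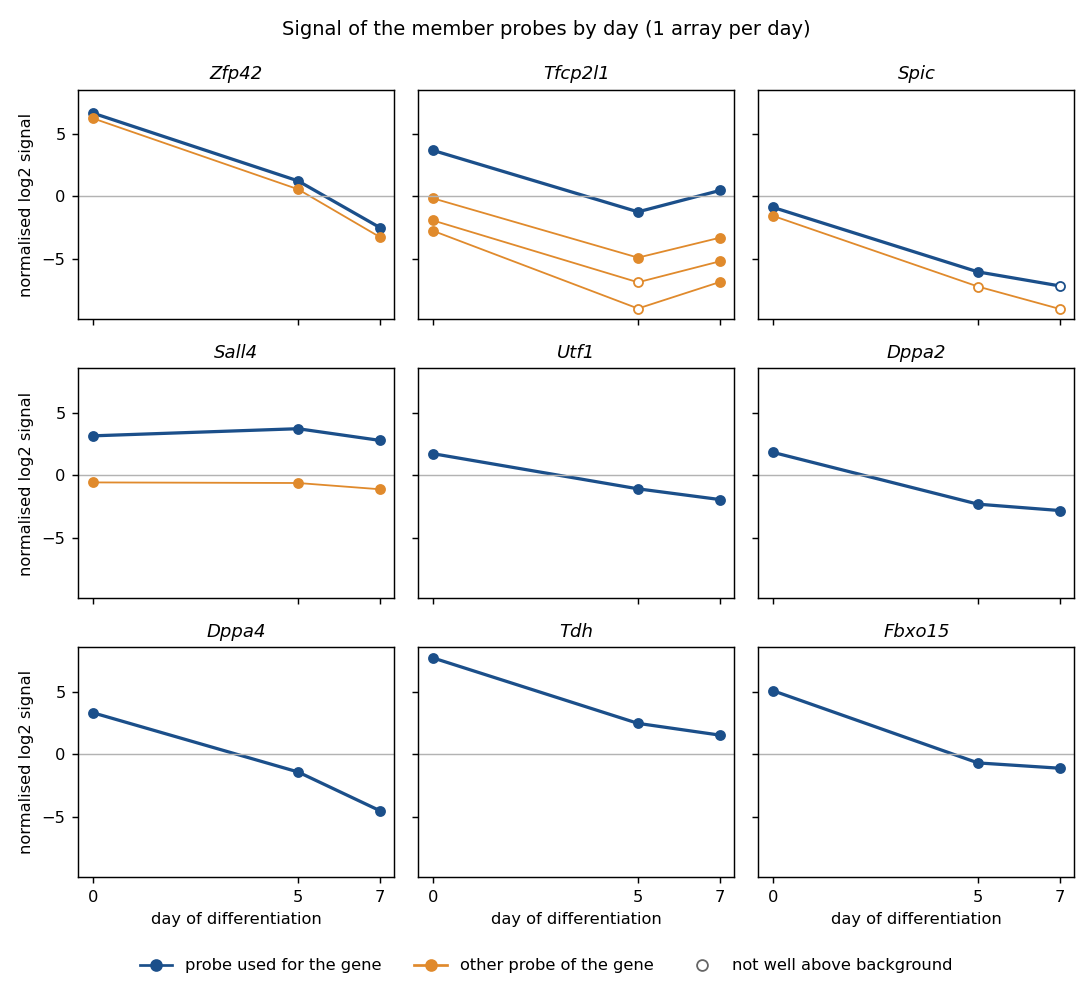
Normalised log2 signal (0 is the 75th percentile of an array) of each member probe against the day of differentiation, 1 panel per member and 1 array per day. Blue points are the probe used for the gene, orange points its other probes, and open points are not well above background. In 7 of 9 panels the blue line falls at both steps, that of Tfcp2l1 comes back up on day 7, and that of Sall4 stays within 1 log2 unit.

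On day 5, 8 of the 9 members were at least 2-fold lower than on day 0 and 0 were higher, where 16.2% of all genes compared were lower and 16.4% higher. Their median log2 difference was -4.90, against -0.12 over all genes. The exception was Sall4. On day 7, 8 members were again at least 2-fold lower than on day 0 and 0 higher, where 19.2% of all genes were lower and 16.2% higher, and their median difference was -6.16, against -0.19 over all genes. With the normexp background correction, an alternative way to remove the local background, the share of called genes that were lower became 84.2% in place of 49.6% on day 5 and 84.0% in place of 54.2% on day 7. The 8 falling members stayed at least 2-fold lower than on day 0 on both days under that correction and under every other alternative that gave them a value.

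Zfp42 showed the deepest measured fall of the 9 by day 7. Its chief probe (chr8:44380667-44380726, mm9) read 100.4 times the 75th percentile on day 0, 2.37 times on day 5 and 0.179 times on day 7. The overlapping probe read 75.3, 1.49 and 0.106 times. Both probes fell at each step, and stayed well above background on all arrays. By the chief probe Zfp42 was 42.3-fold lower on day 5 than on day 0 (log2 difference -5.40), and 562-fold lower on day 7 than on day 0 (-9.13). From day 5 onward it lost a further 13.3-fold (-3.73 for day 7 against day 5). Of all genes compared, 12 had a day 7 difference from day 0 as low as this or lower, Zfp42 included. The folds shrank to 26.6 on day 5 and 180.3 on day 7 with the normexp correction, and the direction did not change.

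Tfcp2l1, a grainyhead-like factor downstream of LIF and Stat3, fell and then came part of the way back. Its chief probe (annotated under the older symbol Tcfcp2l1) read 12.8 times the 75th percentile on day 0, 0.428 times on day 5 and 1.40 times on day 7. The day 5 array was the lowest of the 3, and the day 7 array lay between the others. Tfcp2l1 was 29.9-fold lower on day 5 than on day 0 (-4.90), 9.17-fold lower on day 7 than on day 0 (-3.20) and 3.27-fold higher on day 7 than on day 5 (1.71). No other member gained 2-fold after day 5, where 5.99% of all genes did. An unmapped probe read 0.908, 0.0342 and 0.103 times the 75th percentile on days 0, 5 and 7, and was 3.02-fold higher on day 7 than on day 5. The probe at 120577122 read 0.268, 0.00875 and 0.0280 times and gained at least 3.04-fold between those later days, a bound because it was not well above background on day 5. The probe at 120575083 read 0.151, 0.00206 and 0.00892 times, was also not well above background on day 5, and allows no fold between days 5 and 7. Thus 3 of the 4 probes, which share no run of more than 7 bases, put day 7 above day 5 by 2-fold or more. The rise from day 5 was 1.59 on the log2 scale with the normexp correction and 1.74 in the authors' deposited table. It was at least 2-fold under all 9 alternatives that gave it a value. The falls against day 0 were 17.3-fold on day 5 and 5.73-fold on day 7 with the normexp correction. Of 8 markers of kidney duct and surface epithelium, other tissues with Tfcp2l1, 1 was higher and 1 lower on day 7 than on day 5. Of all genes, 5.99% were higher and 8.44% lower. Against day 0, 2 of the 8 (Krt8 and Krt18) were higher and 1 (Aqp3) lower on both later days. The shares of all genes were 16.4% higher and 16.2% lower on day 5, and 16.2% and 19.2% on day 7. Their part in the Tfcp2l1 result was not tested.

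Dppa2 and Dppa4 encode partner proteins with SAP domains that bind chromatin together, and the genes lie side by side on chromosome 16. Dppa4 (probe at chr16:48293977-48294036, mm9) read 9.93 times the 75th percentile on day 0, 0.377 times on day 5 and 0.0441 times on day 7. Dppa2 (chr16:48318794-48318853) read 3.58, 0.204 and 0.143 times. Both were highest on day 0 and lowest on day 7, but Dppa4 went on falling after day 5 while Dppa2 changed less than 2-fold. Dppa4 was 26.4-fold lower on day 5 than on day 0 (-4.72) and 225-fold lower on day 7 than on day 0 (-7.82), with a further 8.54-fold between days 7 and 5 (-3.10). Dppa2 was 17.5-fold lower on day 5 (-4.13) and 25.0-fold lower on day 7 (-4.64) than on day 0, and its day 7 and day 5 signals differed by -0.51. With the normexp correction the day 7 difference from day 5 was -1.07 for Dppa4 and 0.33 for Dppa2, so that only the direction for Dppa4 held. The folds against day 0 were then 15.1 on day 5 and 31.7 on day 7 for Dppa4, and 11.1 and 8.82 for Dppa2.

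Utf1 encodes a chromatin-associated protein of the inner cell mass, and Spic an Ets-family factor that is also known from red pulp macrophages. Utf1 (chr7:147130120-147130179, mm9) read 3.33 times the 75th percentile on day 0, 0.476 times on day 5 and 0.263 times on day 7. It had the smallest fall among the 8 on day 5, where it was 6.99-fold lower than on day 0 (-2.81), and was 12.7-fold lower on day 7 (-3.66), or 4.64-fold and 6.09-fold with the normexp correction. Spic (chr10:88138053-88138112) read 0.551, 0.0155 and 0.00714 times on days 0, 5 and 7, and the day 7 reading was not well above background. It was 35.5-fold lower on day 5 (-5.15) and at least 72.5-fold lower on day 7 (-6.18) than on day 0. Its other probe (chr10:88138166-88138225) read 0.345 times on day 0 and was not well above background on days 5 and 7, which makes it at least 37.5-fold and at least 45.4-fold lower than on day 0. Spic was the member nearest to the background, and its folds were the most changed by the normexp correction, to 14.7 on day 5 and 4.46 on day 7. Of 8 macrophage markers, 4, 3 and 3 were well above background on days 0, 5 and 7. Cd68, Csf1r and Hmox1 were so on every array and Itgam on day 0 only. Ptprc, Adgre1, Cd163 and Spi1, a relative of Spic, were so on none. Cd68 was lower than on day 0 on both days (-3.21 and -3.42), as Spic was. Hmox1 was at -1.15 on day 5 and -0.42 on day 7, and Csf1r at -0.77 on day 5. On day 7 Csf1r was 3.17-fold higher than on day 0 by its chief probe, 1 of 3 probes past 2-fold. Their part in the Spic result was not tested.

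Tdh, the mitochondrial threonine dehydrogenase, starts the breakdown of threonine to glycine and acetyl-CoA. Its probe (chr14:64111327-64111386, mm9) read 205.6 times the 75th percentile on day 0, 5.51 times on day 5 and 2.87 times on day 7. Tdh was 37.3-fold lower on day 5 (-5.22) and 71.5-fold lower on day 7 (-6.16) than on day 0, and still lay above the 75th percentile on both later arrays. Fbxo15, a substrate-binding subunit of SCF ubiquitin ligases on chromosome 18, read 33.6, 0.620 and 0.462 times on days 0, 5 and 7. Among members its fall by day 5 was the greatest, at 54.2-fold (-5.76), and on day 7 it was 72.7-fold lower than on day 0 (-6.18). Most of the loss of both genes lay before day 5: day 7 differed from day 5 by -0.94 for Tdh and by -0.42 for Fbxo15. Normexp-corrected folds against day 0 were 21.4 on day 5 and 45.5 on day 7 for Tdh, and 32.2 and 36.2 for Fbxo15.

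Sall4, a spalt-type zinc finger factor that recruits the NuRD deacetylase complex, kept its signal. Its chief probe read 8.88 times the 75th percentile on day 0, 13.2 times on day 5 and 6.90 times on day 7. The other probe read 0.678, 0.656 and 0.464 times. By the chief probe day 5 was the highest array, by the other probe day 0 and day 5 were nearly level, and both had their lowest reading on day 7. The log2 difference from day 0 was 0.57 on day 5 and -0.36 on day 7 by the chief probe, and -0.05 and -0.55 by the other. With the normexp correction the day 5 difference of the chief probe was 1.24, past 2-fold, so how far Sall4 was above its day 0 signal on day 5 depends on the background correction and on the probe. No setting put Sall4 2-fold below day 0 on either later day.

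**Figure D2:**
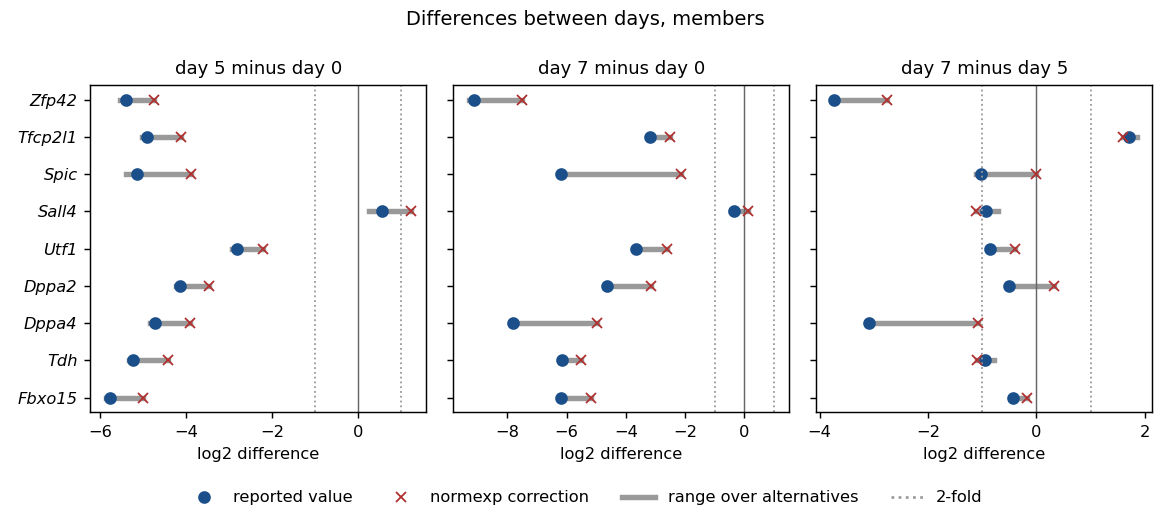
Log2 difference of each member in the 3 comparisons, 1 row per member. Blue points are the reported values, crosses the normexp correction, grey bars the range over the alternatives, and dotted lines mark 2-fold. On the left and in the middle, 8 members lie left of the 2-fold line with their whole bars, and on the right only Zfp42 and Dppa4 do, with Tfcp2l1 on the other side.

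Between days 7 and 5, 3 of the 9 members were at least 2-fold lower on day 7 (Zfp42, Dppa4 and, as a bound, Spic), where 8.44% of all genes were, and 1, Tfcp2l1, was higher. The median over members was -0.93, against -0.06 over all genes. With the normexp correction 6.74% of called genes were lower on day 7, in place of 58.5%, and 4 members were lower (Zfp42, Dppa4, Tdh and Sall4). The differences of Tdh (-0.94), Sall4 (-0.93) and Spic (-1.03) lay close to the 2-fold limit, so which of them is counted moves with the setting, while that of Utf1 (-0.86) was under the limit in all 9 alternatives. Zfp42 and Dppa4 were past it under all 9 alternatives that gave a value. The falling members thus differed in timing. Of the whole log2 fall between days 0 and 7, 59.2% was reached by day 5 for Zfp42 and 60.4% for Dppa4, against 76.6% for Utf1, at most 83.3% for Spic, 84.8% for Tdh, 89.0% for Dppa2 and 93.1% for Fbxo15. After the normexp correction, the share was 63.2% for Zfp42, but 78.5% for Dppa4, near the 80.3% of Tdh and the 84.9% of Utf1. For scale, probes printed as 10 spots varied within an array by a median SD of 0.087, 0.077 and 0.079 (log2) on days 0, 5 and 7, a technical spread that gives 0.12 for a difference. Dim probes among them, with normalised log2 below -3, varied more, by 0.152, 0.132 and 0.148. Spic on days 5 and 7 and Dppa4 on day 7 were that dim. These spreads leave out culture, RNA and labelling. Every member is printed as 1 spot per probe.

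**Figure D3:**
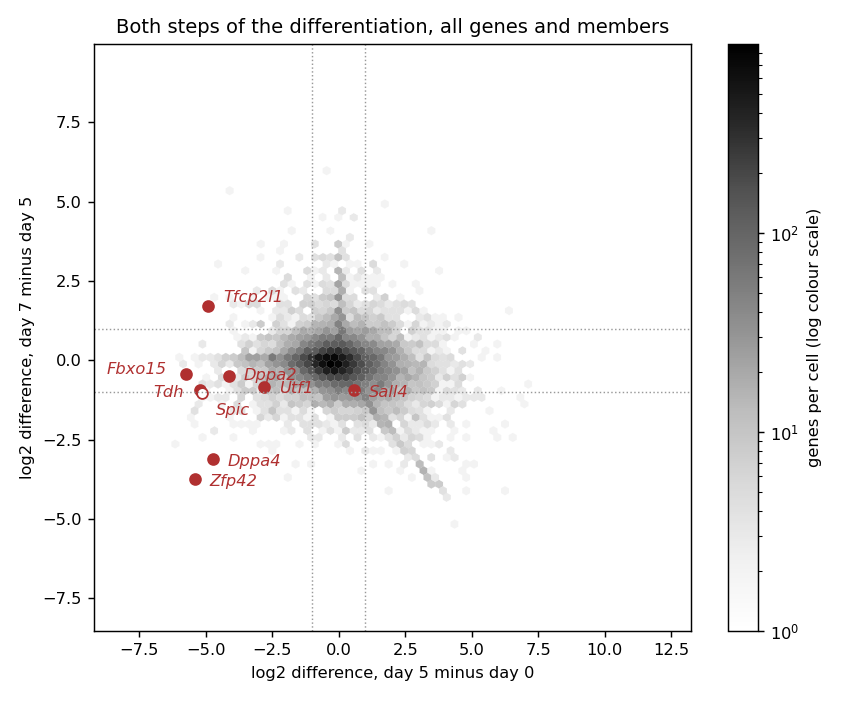
Log2 difference of day 5 minus day 0 (x axis) against day 7 minus day 5 (y axis). Grey cells count all genes compared on a log colour scale, red points are the 9 members, the open point has a bound on day 7, and dotted lines mark 2-fold. Zfp42 and Dppa4 lie low on the left, Tfcp2l1 high on the left and Sall4 near the centre of the x axis. The other 5 members lie in a band from -1.03 (Spic) to -0.42 (Fbxo15) on the y axis.

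Genes whose pair of differences lay nearest to that of Zfp42 were sought among 14167 genes well above background on all 3 arrays. Members and clone, accession, RIKEN, LOC and Gm names had been left out of these. The nearest were Triml1, Tekt1, Ooep, Rbmxl2 and Mael. Triml1 lay 0.34 log2 units away, and was 43.5-fold lower on day 5 and 445-fold lower on day 7 than on day 0. It lies on chromosome 8 with Zfp42, with only Triml2, which has no probe, between them in the RefSeq gene order. Tekt1 lay 0.40 units away, Ooep 0.41, Rbmxl2 0.47 and Mael 0.66, and these 4 are on other chromosomes. The likeness rests on 3 arrays. It was checked under 1 alternative, the normexp correction, and did not hold after day 5. Day 7 then differed from day 0 by -4.34 for Triml1, -4.96 for Tekt1, -5.86 for Ooep, -5.66 for Rbmxl2 and -3.88 for Mael. For Zfp42 it was -7.49. Day 7 then differed from day 5 by 0.18 for Triml1, -0.73 for Tekt1, -0.97 for Ooep, -0.65 for Rbmxl2 and 0.49 for Mael. For Zfp42 this was -2.76.

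Gene neighbours in the RefSeq order of GRCm38.p6, looked at after the values were seen, moved with some members and not with others. Next to Dppa2 and Dppa4, Morc1, a germ line gene of transposon silencing, was 91.8-fold lower on day 5 (-6.52) and at least 3305-fold lower on day 7 than on day 0, which became -5.63 and -6.42 (log2) with the normexp correction. On either side of Utf1, Kndc1 differed from day 0 by -2.37 on day 5 and -3.40 on day 7, and Spef1l by -1.13 and -1.81 (-1.79 and -2.40, and -3.46 and -1.63, with the normexp correction). The neighbours of Tdh changed less than 2-fold: Fam167a differed by -0.59 on day 5 and -0.85 on day 7, and Mtmr9 by -0.32 and -0.41. Under normexp, Fam167a, a dim gene, was past 2-fold, at -3.26 and -1.56. The neighbours of Fbxo15 also changed less than 2-fold, with Cyb5a at -0.17 and -0.14 and Timm21 at 0.79 and 0.47 (1.13 and 0.73 with the normexp correction). Next to Tfcp2l1, Clasp1 lay above day 0 by 1.32 on day 5 and 0.91 on day 7 while Gli2 lay below it, at -2.28 and -2.90. The median over all probes of Clasp1 put it at -0.090 on day 5. Beside Sall4, which kept its signal, Atp9a differed from day 0 by -1.52 and -1.15 (-1.21 and -0.81 with the normexp correction) and Zfp64 by -1.01 and -0.82 (-0.32 on both days with that correction).

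Other pluripotency genes were set beside the members. Of 19 such genes with values, the core 3 among them, 15 were at least 2-fold lower on day 5 than on day 0 and 0 higher (median -3.05), and on day 7 the counts were again 15 and 0 (median -4.14). Among all genes compared, 16.2% were lower and 16.4% higher on day 5, and 19.2% and 16.2% on day 7. In the reported setting the nuclear receptor gene Esrrb fell furthest, with a difference of -5.83 on day 5 and -10.42 on day 7. Klf4 (-5.52), Nr5a2 (-5.41) and Tcl1 (-4.99) followed on day 5, and Gdf3 (-8.23), Dppa3 (-8.07) and Dppa5a (-8.02) on day 7. This day 7 order did not hold with the normexp correction, which put Dppa5a (-7.28) below Esrrb (-6.22) and left Dppa3 at -4.11 and Gdf3 at -3.89. Of the core, Pou5f1 differed by -2.37 and -4.14, Nanog by -2.63 and -4.04 and Sox2 by -3.96 and -4.69 on days 5 and 7. Lin28a (0.17 and 0.16) and Klf2 (0.35 and -0.20) stayed within 2-fold by their chief probes, as Sall4 did, and Klf2 (1.07) was past it on day 5 with the normexp correction. The other of the 2 Klf2 probes was at least 2-fold lower than on day 0 on both days. Between days 7 and 5, 10 of the 19 were lower and 2 higher, where 8.44% of all genes were lower and 5.99% higher. The 2 were Klf4, 7.56-fold higher on day 7 than on day 5 (2.92), and Tbx3, 11.2-fold higher (3.49). Tbx3 on day 7 was within 2-fold of its day 0 signal (0.44), while Klf4 (-2.60) and Tfcp2l1 remained below theirs. By the normexp correction, the rises of Klf4 and Tbx3 after day 5 were 2.69 and 3.33, and 6 genes in place of 10 were lower on day 7 than on day 5.

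**Figure D4:**
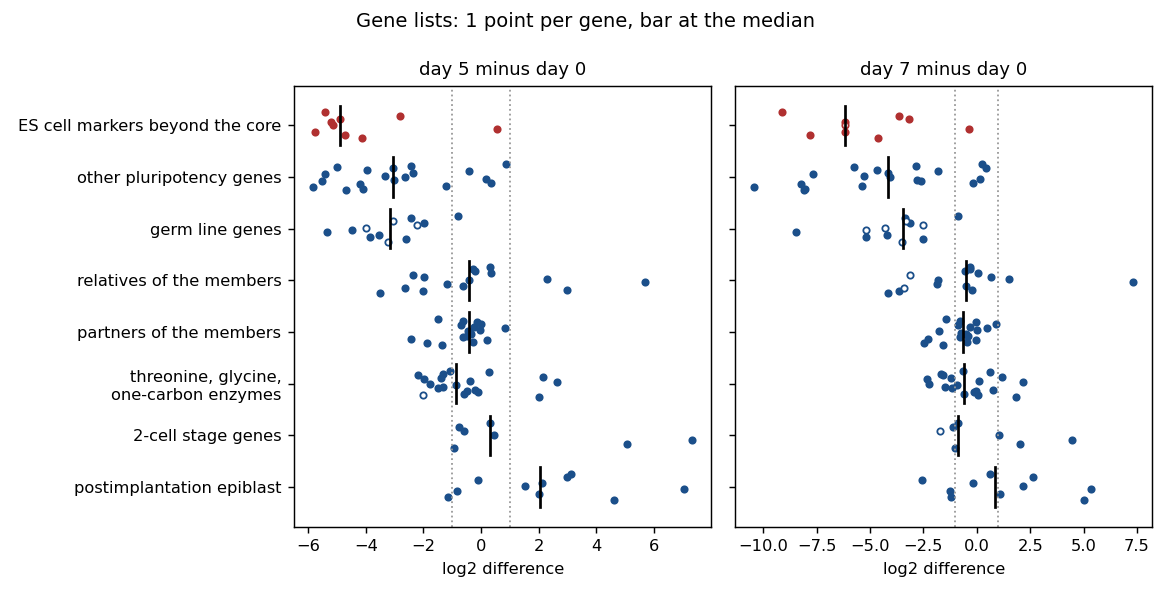
Log2 difference of each gene of 8 lists, day 5 minus day 0 on the left and day 7 minus day 0 on the right. Points are genes, open points are bounds, black bars are list medians, red is used for the ES cell markers of the text, and dotted lines mark 2-fold. Members, other pluripotency genes and germ line genes lie mostly left of -1, and partners of the members lie mostly between the dotted lines.

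Relatives of the members by sequence took varied courses: 6 of 15 were at least 2-fold lower and 3 higher on day 5 than on day 0 (median -0.42), and 6 lower and 2 higher on day 7 (median -0.53). Of all genes, 16.2% were lower and 16.4% higher on day 5, and 19.2% and 16.2% on day 7. The numbers of relatives that were higher lay near that share. Yy1, the gene from which Zfp42 is thought to derive, differed from day 0 by -0.29 and -0.30 on days 5 and 7, and Yy2 by 0.32 and -0.31. Tfcp2 (0.35 and 0.08) and Ubp1 (-0.21 and -0.57), the closest kin of Tfcp2l1, also stayed within 2-fold, but Tfcp2, a dim gene, was at -1.93 and -1.19 with the normexp correction. The more distant grainyhead factors Grhl1 (-3.52 and -4.17) and Grhl2 (-2.03 and -3.64) fell. Among spalt genes, Sall1 differed from day 0 by -0.42 (-1.18 with the normexp correction) and -1.82, and Sall2 by 2.30 and 1.52. Sall3 was lower on day 5 (-1.99) and within 2-fold of day 0 on day 7 (0.65). Spib, a relative of Spic, was lower on day 5 (-2.35) and, as a bound, on day 7 (-3.11), and Prdm16 (-2.65, and -3.40 as a bound) did the same. The Prdm family also held Prdm6, 52.1-fold higher on day 5 and 161-fold higher on day 7 than on day 0 (3.58 and 4.99 on the log2 scale with the normexp correction). Prdm1 was 8.02-fold higher on day 5 (2.36 on the log2 scale with that correction) but at -0.24 on day 7.

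Most genes for partner proteins of the members stayed within 2-fold, as did most genes compared. These were 14 of 18 partners on day 5 and 13 on day 7, against 14275 and 13684 of all 21181 genes. Of 18 genes of the SCF ligase that holds Fbxo15, of NuRD that binds Sall4, and of the Polycomb complex and co-repressors linked to Utf1 and Prdm14, 4 were at least 2-fold lower and 0 higher on day 5 than on day 0, where 16.2% of all genes were lower, and the median was -0.41, against -0.12 over all genes. On day 7, 5 were lower and 0 higher, where 19.2% of all genes were lower, and the median was -0.63, against -0.19. The 4 were the Polycomb genes Eed (-2.45) and Suz12 (-1.48) and the co-repressor genes Cbfa2t3 (-1.87) and Cbfa2t2 (-1.34), of which Cbfa2t2 encodes the partner of Prdm14. Jarid2 joined them on day 7 (-1.76), where Eed was at -2.30, Suz12 at -1.46, Cbfa2t3 at -2.49 and Cbfa2t2 at -1.57. After the normexp correction 2 were lower and 1, Mta1 of NuRD (1.30), higher on day 5, and 4 lower and 1, Rbbp7 (1.45), higher on day 7. Suz12 (-0.78 on day 5 and -0.93 on day 7) and, on day 5, Cbfa2t2 (-0.76) were then within 2-fold. The SCF genes Skp1 (-0.64 and -0.81), Cul1 (0.21 and -0.04) and Rbx1 (-0.14 and -0.03) stayed within 2-fold on days 5 and 7 by their chief probes while Fbxo15 fell, but 1 of the 3 Rbx1 probes was at least 2-fold higher on both days. So did the NuRD genes Chd4 (-0.27 and -0.44), Hdac1 (-0.36 and -0.51) and Mbd3 (-0.03 and -0.01), as Sall4 did. Rbbp4 (-0.69 and -0.89), Rbbp7 (0.01 and 0.90), Hdac2 (-0.37 and -0.75) and Mta1 (0.84 and 0.48) were also within it.

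Enzymes of threonine, glycine and folate metabolism around Tdh took varied courses, and none had a measured difference from day 0 as low as that of Tdh. Of 19 with values, 9 were at least 2-fold lower and 3 higher on day 5 than on day 0 (median -0.86), and 7 lower and 3 higher on day 7 (median -0.60). The shares of all genes were 16.2% lower and 16.4% higher on day 5, and 19.2% and 16.2% on day 7. The numbers of enzymes that were higher lay near that share. Gcat, which completes the step that Tdh begins, differed from day 0 by -0.48 on day 5 and -0.05 on day 7. Gldc, of the glycine cleavage system, was lower by 2.83-fold on day 5 (-1.50) and 2.27-fold on day 7 (-1.18). Shmt1 (-2.20 and -1.56) and Mthfd2 (-1.77 and -2.25), of folate metabolism, and Psat1 of serine synthesis (-1.97 and -2.35) were lower on both days, as were Shmt2 (-1.31 and -1.67) and Mthfd1 (-1.32 and -1.48). Aldh1l2 was at least 4.09-fold lower on day 5 and at 0.05 on day 7 by its chief probe, while the other probe was at least 2-fold lower on day 7 too. Mthfd2l (2.64 and 2.16), Sdsl (2.14 and 1.16) and Aldh1l1 (2.02 and 1.85) were higher than on day 0. Under normexp, the 9 lower enzymes on day 5 became 4, with Gldc (-0.77 and -0.61) and Mthfd1 (-0.71 and -0.98) within 2-fold on both days and Shmt2 (-0.75) on day 5, and the rises of Mthfd2l and Sdsl ended on both days. Aldh1l2 was then at -1.44 on day 7.

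Germ line genes kept silent by DNA methylation in other cells were mostly lower. Of 12, 11 were at least 2-fold lower and 0 higher on both day 5 (median -3.15) and day 7 (median -3.45) than on day 0. Of these 12 differences, 4 on day 5 and 5 on day 7 were bounds, and the medians include them. Sycp1, Slc25a31, Taf7l and Asz1 were well above background only on day 0, so the rule could not have called them higher. Over all genes, 16.2% were lower and 16.4% higher on day 5, and 19.2% and 16.2% on day 7. Mael (-5.36), Piwil2 (-4.48) and Ddx4 (-3.85) were among the lowest on day 5, and Slc25a31 was at least 15.8-fold lower. On day 7 Mael stood at -8.48 (-3.88 with the normexp correction) and Ddx4 at -5.17. Of 7 genes of the 2-cell embryo tied in the literature to Dppa2 and Dppa4, 0 were lower and 2 higher on day 5 than on day 0 (median 0.31), and 3 were lower and 3 higher on day 7 (median -0.89). The 2 were Tcstv3 (162-fold higher) and Tcstv1 (33.7-fold), members of a multigene family whose probes may read several copies, and with the normexp correction their day 5 folds were 35.7 and 9.71 times smaller, with Tcstv3 at 2.18 (log2), and their day 7 rises turned round. By that correction 4 of the 7 genes were lower and 2 higher on day 5 than on day 0, and 4 lower and 0 higher on day 7. Zscan4c, the best known of these genes, differed from day 0 by 0.31 and -0.89, and by -3.33 and -1.61 with the normexp correction, all from dim readings. Zfp352, Usp17la and Tdpoz1 were also dim (normalised log2 below -3) on every array, and Tcstv1 and Tcstv3 on day 0. The 3 lower on day 7 in the reported setting were Zfp352 (-1.09), Usp17la (a bound) and Eif1a (-1.02), a bright gene.

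Of 10 genes of the postimplantation epiblast, 7 were at least 2-fold higher and 1, Dnmt3a (-1.13 by its chief probe, 1 of 3 probes past 2-fold), lower on day 5 than on day 0 (median 2.06), against 5 higher and 3 lower on day 7 (median 0.87). Across all genes, 16.4% were higher and 16.2% lower on day 5, and 16.2% and 19.2% on day 7. Fgf5 was 132-fold higher on day 5 and 40.3-fold higher on day 7, and Cdh2 24.4-fold and 32.6-fold higher by its chief probe, the only 1 of its 3 probes past 2-fold. Zic2 (3.12), Sox4 (2.97), Otx2 (2.10) and Dnmt3b (2.01) were also above day 0 on day 5, and Fgf15 (-0.83) and Pou3f1 (-0.12) were within 2-fold. Between days 7 and 5, 4 of the 10 were lower and 0 higher, where 8.44% of all genes were lower and 5.99% higher. The 4 were Zic2 (-2.48), Pou3f1 (-2.42), Otx2 (-2.26) and Fgf5 (-1.71). By the normexp correction, 4 epiblast genes in place of 7 were higher on day 5, with Zic2 (0.86) and Sox4 (0.51) within 2-fold and Dnmt3a at -0.80. The rises of Cdh2 were then 1.97 on day 5 and 2.30 on day 7 (log2), and those of Fgf5 6.02 and 4.16.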

How the data were processed

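Per the file headers, the authors scanned 3 one-colour arrays of 1 slide with Agilent Feature Extraction 10.5.1.1. The deposited scanner files hold linear fluorescence intensity values, 1 per spot, with the background already removed by that software. Probe positions are those of build mm9, per the file headers. The deposited value table holds log2 values, each column with a median of 7.17. Log2 processed signal was taken, the 75th percentile of each array over 43379 gene spots was subtracted, and control and outlier-marked spots (149, 104 and 131 on days 0, 5 and 7) were left out. No gene spot was saturated. A gene was represented by the probe well above background on most arrays, then the brightest. Of 27924 names, 21181 were well above background on at least 1 array. Names came from RefSeq by accession (24836 probes), symbol (6051) or synonym (1809). Dim readings took the larger of their own value and the lowest signal marked as well above background, giving "at least N-fold". A call needed 2-fold. Named genes of the lists were in part the up to 4 highest and 4 lowest called per comparison, with fixed relatives. Others, such as Lin28a, the SCF and NuRD genes within 2-fold and the macrophage markers, were named outside this rule. Members and lists were chosen with earlier results of these data known. The steps were tested on simulated data. Normexp used limma 3.58.1 (offset 50) on the mean and background intensity. Python 3.11.15 and R 4.3.3 were used. The number of arrays limits the precision.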

Additional observations from a re-analysis of the deposited data

How the results depend on the processing

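No paired analysis was possible because each day had 1 array, and the replicate number only names a sample. With 10 alternatives tried, 126 alternative counts of members or genes stayed within 1.5 times the reported count and 13 did not. With the normexp correction, 9258 of 21181 genes were lower and 1740 higher on day 5 than on day 0, 8293 lower and 1575 higher on day 7 than on day 0, and 439 lower and 6071 higher on day 7 than on day 5, and 1 member, Sall4, was higher on day 5. The median difference of genes above background was then -0.61, -0.56 and 0.22, and 6.74% of called genes were lower on day 7 than on day 5, in place of 58.5%. With a 3-fold limit these counts of genes were 1757 and 2092, 2124 and 2121, and 855 and 701. Under normexp, called differences turned round for Mthfd2l (-0.12 on day 5 and -0.24 on day 7), Lef1 (-0.38 on day 5), Sdsl (-0.39), Tcstv1 (-0.60), Tcstv3 (-0.23) and Tdpoz1 (-1.43) on day 7, all against day 0, and between days 7 and 5 for Nr5a2 (0.089), Zscan4c (1.72), Mael (0.49), Ddx4 (0.57) and Triml1 (0.18). The median over probes turned Clasp1 round on day 5 (-0.090). The cause was not tested. Of 200 differences of at least 2-fold among members, list genes and neighbours, 126 were over 1.5 times smaller with normexp and 44 were under 2-fold or turned round. Members lower on day 7 than on day 5 numbered between 2 and 4 over the alternatives. Signal over background limits Spic and the dimmer Tfcp2l1 probes.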

Other observations

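An unnamed probe on chromosome 2 (168579527 to 168579586, mm9, minus strand), 1296 bases from the nearer Sall4 probe, differed from day 0 by -0.11 on day 5 and -1.11 on day 7, and was chosen after its values were seen. Its day 5 value lay close to that of the other Sall4 probe, and on day 7 it was 1.00 log2 units below day 5. The files name no gene for it.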
